A study of Mus musculus with 163 samples.

Results

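The immediate early genes *Fos*, *Fosb*, *Jun*, *Junb*, *Egr1*, *Nr4a1*, *Arc*, *Ier2*, *Btg2* and *Dusp1* were followed in 163 single cells from mouse hypothalamus. They were chosen by name, as the 10 rows of these genes among the 12187 genes with deposited values, and all 10 were present. The cells came from male *Pomc-eGFP* mice of the strain C57/BL6 Tg(Pomc-EGFP)1Low, fed ad libitum, in which *Pomc* regulatory sequences drive the green fluorescent protein. The medial basal hypothalamus was digested with papain, single GFP-positive cells (MBH Pos) were sorted into plates, and each cell gave 1 library. All 163 cells thus share the transgene, the feeding state and the dissociation, no treatment was given, and the sort rests on GFP and not on *Pomc* itself.

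Immediate early genes are transcribed within minutes of a stimulus, without new protein synthesis, when kinases activate factors such as CREB and SRF that already sit on their promoters. In the brain their RNA is widely used to mark neurons that have recently been active, and they are also switched on by tissue dissociation and stress. *Fos*, *Fosb*, *Jun* and *Junb* encode subunits of the AP-1 transcription factor, in which FOS proteins pair with JUN proteins. *Egr1* and *Nr4a1* encode a zinc finger factor and an orphan nuclear receptor, and *Ier2* a nuclear regulator of transcription. *Arc* acts at synapses, *Btg2* slows proliferation and promotes mRNA decay, and *Dusp1* is a phosphatase that switches off the kinases upstream.

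Values are log2RPM, that is reads scaled to the size of each library (RPM) with a small prior, on the log2 scale. The lowest value, -0.91 log2RPM (0.532 RPM), stands for 0 reads and is shared by all cells. A gene was called detected at 5 RPM or more (2.32 log2RPM). The cells carried 1.46 M to 41.9 M reads over the measured genes, with a median of 8.11 M, and 4603 to 8589 detected genes. Cells were split at 10 log2RPM of *Agrp*, giving 48 Agrp-high cells. The 115 cells below that level were split by *Pomc* into 28 Pomc-low cells (under 6 log2RPM), 53 Pomc-intermediate cells (6 to under 12 log2RPM) and 34 Pomc-high cells (12 log2RPM or more). Because the labels tie no cell to an animal, a plate or a batch, all 163 cells count as 1 sample. An SD is therefore a spread over cells, and no p-value was computed. The words higher and lower are kept for differences of at least 1 in mean log2RPM. The 95% intervals of shares are exact (Clopper-Pearson) and take in counting error alone.

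The promoters of the members were searched for the letters of the element read by CREB. RefSeq promoters (GRCm38.p6) were matched by symbol for 7 of the 10 members, and 4 are shown as the 250 bases before the gene start, 5′ to 3′ on the gene's own strand. *Fos* and *Nr4a1* are shown because they varied together over the cells, *Btg2* because it reached the highest level of any member, and *Jun* because it varied apart from the others. Capitals mark TGACG, the core of the cAMP response element (CRE), which reads CGTCA where it lies on the other strand, and the full element TGACGTCA, which contains it on both strands.
Fos: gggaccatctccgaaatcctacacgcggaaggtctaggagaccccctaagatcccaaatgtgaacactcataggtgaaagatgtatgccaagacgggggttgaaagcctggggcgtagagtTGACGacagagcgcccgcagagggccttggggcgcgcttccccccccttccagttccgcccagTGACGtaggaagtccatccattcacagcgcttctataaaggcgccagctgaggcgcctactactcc
Nr4a1: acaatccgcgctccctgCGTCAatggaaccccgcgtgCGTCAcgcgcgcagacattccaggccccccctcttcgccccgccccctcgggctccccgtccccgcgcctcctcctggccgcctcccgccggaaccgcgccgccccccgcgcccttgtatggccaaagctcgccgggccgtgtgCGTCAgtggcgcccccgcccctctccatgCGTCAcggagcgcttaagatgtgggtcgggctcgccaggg
Btg2: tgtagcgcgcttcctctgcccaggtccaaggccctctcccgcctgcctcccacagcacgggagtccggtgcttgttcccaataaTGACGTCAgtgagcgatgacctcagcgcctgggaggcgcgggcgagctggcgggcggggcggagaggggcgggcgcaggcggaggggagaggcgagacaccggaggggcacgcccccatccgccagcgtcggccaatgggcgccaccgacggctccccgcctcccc
Jun: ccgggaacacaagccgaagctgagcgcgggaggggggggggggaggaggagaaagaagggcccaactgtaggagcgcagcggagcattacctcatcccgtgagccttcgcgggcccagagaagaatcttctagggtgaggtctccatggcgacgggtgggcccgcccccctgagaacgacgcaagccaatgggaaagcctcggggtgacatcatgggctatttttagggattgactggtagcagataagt

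These windows lie at chr12:85473640-85473889 (plus strand, *Fos*), chr15:101266596-101266845 (plus strand, *Nr4a1*), chr1:134079156-134079405 (minus strand, *Btg2*) and chr4:95052223-95052472 (minus strand, *Jun*). TGACG was found, on either strand, in 6 of the 7 matched members (all but *Jun*), and in 17.8% of all 32851 promoter windows of this length. *Fos* has it from -129 and from -66, and *Nr4a1* has it 4 times. The full TGACGTCA was found in *Btg2*, from -166, and in *Dusp1*, from -143, and in 1.55% of all windows. The EGR motif GCGNGGGCG was found in *Fosb*, *Nr4a1* and *Btg2* (4.7% of all windows), and TATAAA in *Fos* (12.4% of all windows). The AP-1 motif TGANTCA and the CArG box, read by SRF, had no match in the 7 windows (6.75% and 1.47% of all windows). Each match says only that these letters are present.

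A group of 8 cells stood apart from all others in the members and are described before the results that rest on them. They are the 8 cells with the epithelial adhesion gene *Epcam* at 5 log2RPM or more, a limit chosen after the values had been seen, and are called Epcam cells here. *Epcam* stood at 8.28 to 10.65 log2RPM in them (median 10.38) and at no more than 3.66 log2RPM in the other 155 cells. The mean of the 10 members was 9.32 to 12.08 log2RPM in the Epcam cells and -0.88 to 4.86 log2RPM in the other cells, so that no cell lay between 4.86 and 9.32. Every Epcam cell had at least 9 of the 10 members detected.

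Of the 12 pan-neuronal genes listed, all but *Snap25* and *Syt1* were lower in these cells than in the others, as were 37.4% of all genes. Means in Epcam and other cells were 2.24 and 8.18 log2RPM for *Elavl4*, 4.54 and 8.82 for *Eno2*, and 1.79 and 6.60 for *Syn1*. They were 10.4 and 10.33 log2RPM for *Snap25*, and 6.90 and 6.60 for *Syt1*. Pituitary genes were present. *Stmn2*, a microtubule regulator of growing axons, stood at 2.37 to 8.01 log2RPM and *Rbfox3*, the neuronal nuclear antigen, at -0.91 to 1.06 log2RPM, whereas the synaptic *Snap25* stood at 9.48 to 11.50 log2RPM. The pituitary transcription factor *Tbx19* was at 5 log2RPM or more in 5 of 8 Epcam cells (8.15 to 10.80 log2RPM) and in 3 of the other 155. *Pou1f1*, another pituitary factor, was at that level in 2 Epcam cells and 1 other cell. The hormone gene *Prl* reached it in 4 Epcam cells, up to 14.09 log2RPM, and in 14 of the others, up to 7.34 log2RPM, so that *Prl* at this level was not particular to the Epcam cells. *Pomc* ranged from 8.43 to 16.06 log2RPM. The Epcam cells had 4603 to 5984 detected genes (median 5440), against 4648 to 8589 (median 7146) in the other cells, and 2.71 M to 21.3 M reads. Of the 9 pituitary markers listed, 3 were measured (*Prl*, *Pou1f1* and *Tbx19*), with a mean level of at least 3.60 log2RPM in every Epcam cell, against -0.80 to 5.57 log2RPM in the others. No cell had all 3 at 5 log2RPM or more, so the cells are given no cell type name. They carry the same label as the rest. Pituitary cells were also sorted and sequenced in the study, and are not analysed here. None was Agrp-high, 3 were Pomc-intermediate and 5 Pomc-high, and all 8 had cell numbers from 99 to 163. Results that rest on them are given with and without them.

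**Figure D1:**
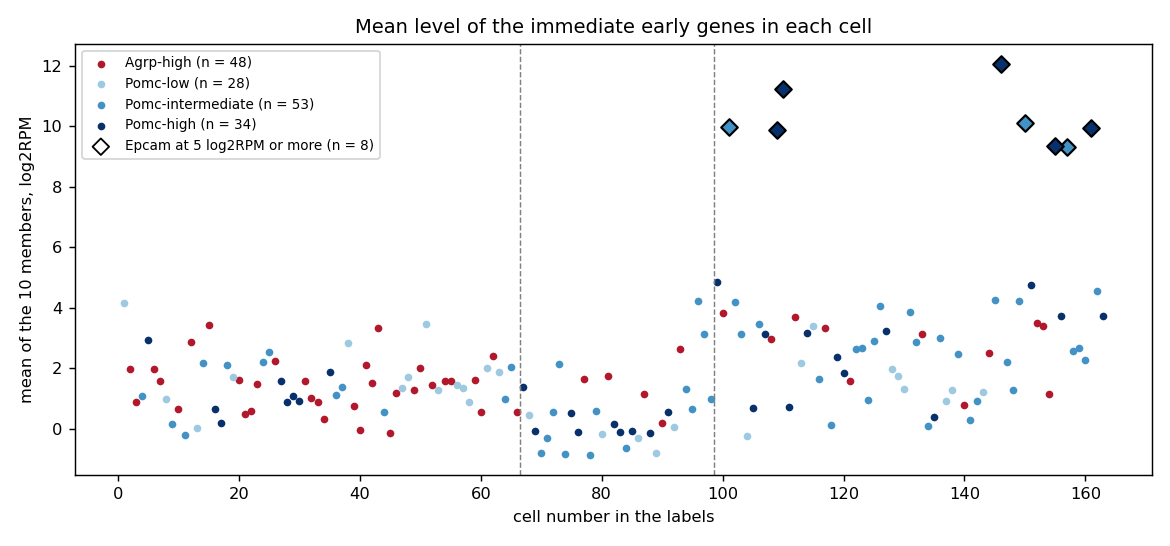
Mean log2RPM of the 10 members (vertical axis) in each cell against the cell number in the labels (horizontal axis), 1 point per cell, coloured by set of cells. Diamonds are the 8 Epcam cells, which lie from 9.32 to 12.08 log2RPM, above all other cells (highest 4.86 log2RPM), and dashed lines mark cell numbers 66 and 98.

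All 10 members were higher in the Epcam cells than in the other cells, while 16.0% of all genes were higher and 37.4% lower by the same measure. Against the other 57 cells numbered 99 to 163 all 10 were higher too, where 15.5% of all genes were higher and 39.0% lower. Since these cells were set apart after the members' values had been seen, the differences are a description. Each deposited gene was at 5 RPM or more in at least 7 cells, and *Arc* was in only 4 of the other 155. *Arc* thus reaches that number only with the Epcam cells, and its difference and share of RPM are no separate support. *Btg2* stood at 11.57, 12.38 and 13.77 log2RPM (lowest, median and highest of 8 cells), against a highest value of 8.41 log2RPM in the other cells. *Egr1* stood at 10.91, 11.72 and 13.10 log2RPM, against a highest value of 8.64 log2RPM, and *Junb* at 9.36, 10.70 and 12.16 log2RPM, against 7.90 log2RPM. These 3 and *Nr4a1* (7.66, 11.48 and 12.42 log2RPM, against 7.41 log2RPM) were above every other cell in all 8, which was true of 13 of 12187 genes (0.107%), *Epcam* among them. *Fos* overlapped with the other cells, at 6.55, 10.58 and 12.47 log2RPM against a highest value of 10.78 log2RPM.

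The remaining members overlapped as well. *Fosb* ranged from 3.93 to 11.22 log2RPM in Epcam cells, *Arc* from 2.56 to 12.10, *Ier2* from 7.93 to 11.56, *Jun* from 2.28 to 12.88 and *Dusp1* from 1.69 to 10.52 log2RPM. *Jun* was below the detection limit in 1 of the 8 cells and *Dusp1* in 2. Of the RPM of a member summed over the 163 cells, the 8 cells held 98.6% for *Arc*, 97.8% for *Fosb*, 96.4% for *Nr4a1*, 93.8% for *Egr1*, 93.1% for *Btg2*, 91.3% for *Ier2*, 82.4% for *Junb*, 71.4% for *Fos*, 58.7% for *Jun* and 47.0% for *Dusp1*. Linear means over all cells are thus set by few cells for most members, and detection and log2 levels are used from here on, except where levels are compared per length.

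The 10 members differed widely in how many cells held them. *Jun* was found in most cells, *Btg2*, *Dusp1* and *Junb* in about every other cell, and *Fosb* and *Arc* in few. Every member had cells at the lowest value and a highest cell above 10 log2RPM.

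Among the AP-1 genes, *Jun* (ENSMUSG00000052684, chromosome 4 of GRCm38, 95049034 to 95167318) was detected in 130 of 163 cells (79.8%, interval 72.8% to 85.6%). It ranged from -0.91 through a median of 5.62 to 12.88 log2RPM, with a mean of 4.93 ± 2.93 log2RPM (SD over 163 cells). This locus extends past the gene itself, which GENCODE places at 95049034 to 95052222, across an antisense gene. The libraries do not mark strand and the deposited value is a single number for the whole locus, so reads of both genes cannot be told apart in it. *Junb* (ENSMUSG00000052837, chromosome 8, 84976909 to 84978748) passed the limit in 84 cells (51.5%, with an interval of 43.6% to 59.4%), from -0.91 through 2.81 to 12.16 log2RPM. *Fos* (ENSMUSG00000021250, chromosome 12, 85473890 to 85477273) passed the limit in 63 cells (38.7%, with an interval of 31.1% to 46.6%), from -0.91 through 1.33 to 12.47 log2RPM. In 15 cells (9.2%, interval 5.24% to 14.7%) *Fosb* (ENSMUSG00000003545, chromosome 7, 19302721 to 19310045) passed the detection limit, and it lay at the lowest value in 93. The JUN partners were therefore found in more cells than the FOS partners, and the intervals of *Jun* and of *Fosb* are separate from those of the others.

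Of the other transcription factors, *Egr1* (ENSMUSG00000038418, chromosome 18, 34859823 to 34864984) passed the limit in 55 cells (33.7%, with an interval of 26.5% to 41.6%), from -0.91 through 0.35 to 13.10 log2RPM. *Ier2* (ENSMUSG00000053560, chromosome 8, 84661331 to 84662852) passed the limit in 36 cells (22.1%, with an interval of 16.0% to 29.2%), with a median of -0.11 log2RPM and a highest value of 11.56 log2RPM. *Nr4a1* (ENSMUSG00000023034, chromosome 15, 101266846 to 101274792) passed the limit in 33 cells (20.2%, with an interval of 14.4% to 27.2%), with a median of -0.65 log2RPM and a highest value of 12.42 log2RPM. The intervals of *Ier2* and *Nr4a1* overlap nearly wholly, and that of *Egr1* overlaps with both.

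Among the effectors and feedback genes, *Btg2* (ENSMUSG00000020423, chromosome 1, 134075170 to 134079120) passed the limit in 91 cells (55.8%, with an interval of 47.9% to 63.6%), from -0.91 through 3.44 to 13.77 log2RPM. *Dusp1* (ENSMUSG00000024190, chromosome 17, 26505590 to 26508519) passed the limit in 86 cells (52.8%, with an interval of 44.8% to 60.6%), from -0.91 through 2.65 to 10.52 log2RPM. In 12 cells (7.36%, interval 3.86% to 12.5%) *Arc* (ENSMUSG00000022602, chromosome 15, 74669083 to 74672570) passed the limit, and it lay at the lowest value in 96. *Btg2*, *Dusp1* and *Junb* had intervals that overlap with each other, and so did *Arc* and *Fosb*. Without the Epcam cells the shares of the rare members were 7 of 155 cells for *Fosb* (4.52%, interval 1.83% to 9.08%) and 4 of 155 for *Arc* (2.58%, interval 0.708% to 6.48%), while *Jun* stayed at 79.4%.

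Compared per length, as mean RPM per kb of GENCODE exon, *Btg2* had the highest level over all cells (131.0 RPM per kb) and *Fosb* the lowest (8.69 RPM per kb). Without the Epcam cells *Jun* was highest, at 25.8 RPM per kb, followed by *Fos* at 20.3, *Dusp1* at 10.3, *Junb* at 9.99 and *Btg2* at 9.54 RPM per kb. *Ier2*, *Egr1* and *Nr4a1* then had 5.44, 3.28 and 1.75 RPM per kb, and *Arc* and *Fosb* 0.406 and 0.198 RPM per kb. *Btg2*, the highest of the members with the 8 cells, was thus below *Jun*, *Fos*, *Dusp1* and *Junb* without them. For *Jun* the length is that of its own exons (3.19 kb), while its deposited locus extends across the antisense gene. Its value per kb may therefore hold reads of that gene, and its first rank is uncertain.

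**Figure D2:**
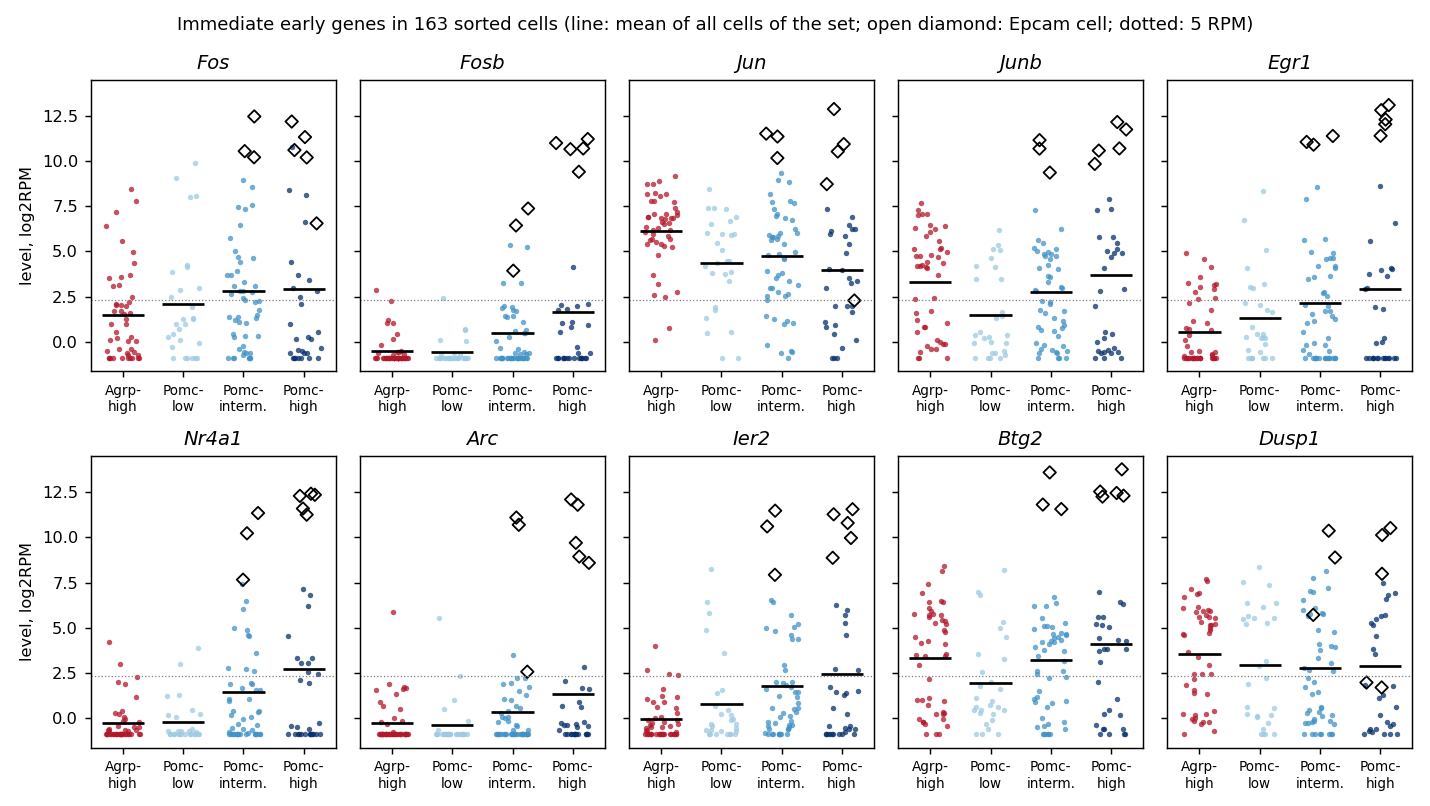
Level of each member (vertical axis, log2RPM) in the 4 sets of cells, with 1 point per cell, a line at the mean of all cells of the set, open diamonds for the 8 Epcam cells and a dotted line at 5 RPM. *Jun* lies higher in the 48 Agrp-high cells (mean 6.15 log2RPM) than in the other sets, and the diamonds lie at the top of most panels.

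A cell held 3.71 ± 2.47 of the 10 members (mean ± SD over 163 cells), or 3.41 ± 2.12 without the Epcam cells. The most frequent numbers were 2 members (33 cells) and 3 members (30 cells), and 8 cells held none. At least 5 members were detected in 50 cells, and all 10 in 6 cells, of which 5 were Epcam cells. The sixth, Cell_162, had the lowest depth of all cells (1.46 M reads) and the highest *Epcam* level outside the Epcam cells, 3.66 log2RPM, and its members lay between 2.61 (*Dusp1*) and 6.21 log2RPM (*Btg2*). After the Epcam cells, the highest mean of the members was that of Cell_99, at 4.86 log2RPM, with *Fos* at 10.78, *Egr1* at 8.64 and *Jun* at 1.07 log2RPM.

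The members varied together over cells, but not evenly. The median Spearman correlation of the 45 pairs of members was 0.42 over 163 cells, and all 45 were above 0. Over all pairs of the 9946 genes detected in at least 20% of cells the median was 0.02, and 0.0366% of those pairs reached the members' median. *Fosb* (9.2% of cells) and *Arc* (7.36%) fall short of that 20%. Correlations over cells are descriptions, and the points share libraries with different depths and numbers of detected genes. Given depth and detected genes, the median was 0.42 as well.

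*Fos* and *Egr1* were the most alike, with a correlation of 0.83. Of the 63 cells with *Fos*, 46 also held *Egr1* (73.0%), as did 46 of the 55 cells with *Egr1* (83.6%). *Fosb* and *Nr4a1* followed at 0.72, *Egr1* and *Nr4a1* at 0.67, *Nr4a1* and *Arc* at 0.67, and *Fosb* and *Arc* at 0.64. These 5 genes, with *Ier2*, formed the block of high correlations. For *Arc* and *Fosb* the block rests mostly on values below the detection limit, with 96 and 93 cells at the lowest value. Without the Epcam cells *Fosb* and *Arc* were detected together in 1 cell, *Nr4a1* and *Arc* in 2 and *Fosb* and *Nr4a1* in 5. Their correlations were then 0.57, 0.60 and 0.67. *Jun* stood outside the block, with a median of 0.17 with the other 9 members and a lowest value of 0.08 with *Arc*, and *Dusp1* had a median of 0.25. The AP-1 partners *Jun* and *Fos* correlated at 0.23, while *Junb* and *Fos* correlated at 0.52. *Jun* was nonetheless found in 56 of the 63 cells with *Fos* (88.9%), against 79.8% of all cells.

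**Figure D3:**
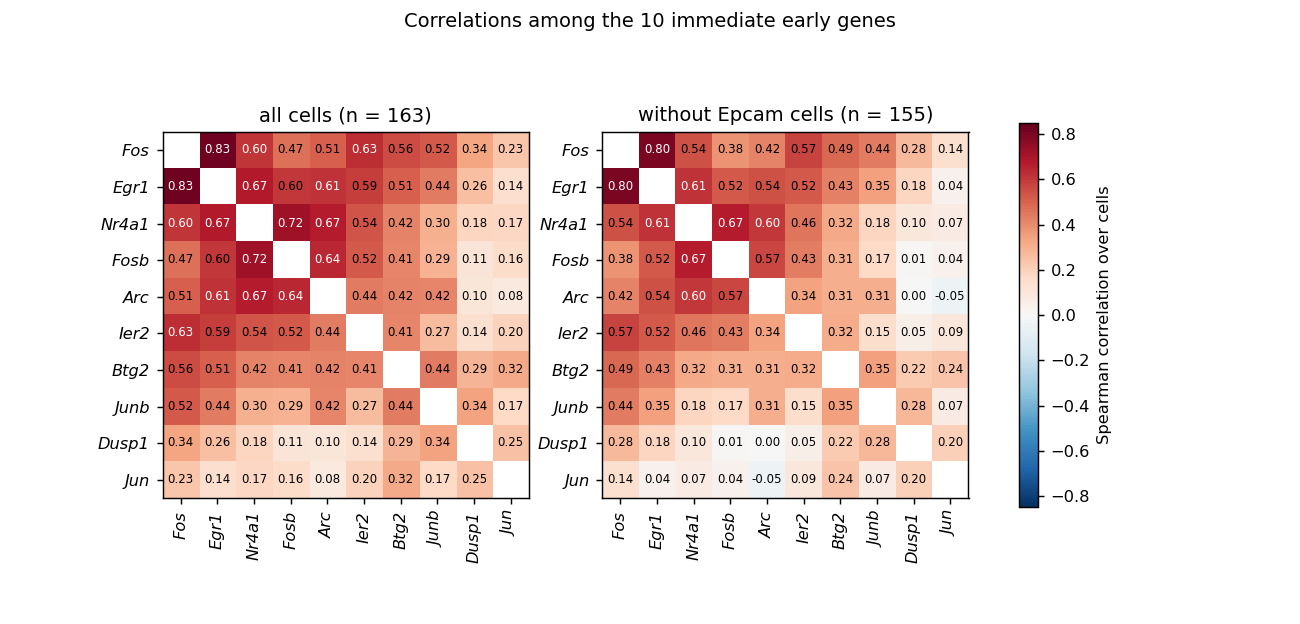
Spearman correlation over cells for each pair of members, over all 163 cells on the left and over the 155 cells without the Epcam cells on the right, with colour and number giving the same value. *Fos* and *Egr1* stay highest (0.83 and 0.80), and the rows of *Dusp1* and *Jun* are the palest in both.

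The size of these correlations differed between sets of cells. Over the 155 cells that are not Epcam cells the median of the 45 pairs was 0.31, 2 pairs were below 0, and *Jun* had a median of 0.07 with the others. *Fos* and *Egr1* stayed at 0.80. Within the 48 Agrp-high cells the median was 0.18, and 13.4% of all gene pairs reached it, against 0.50 in the 115 cells with less *Agrp*, or 0.36 in 107 of them without the Epcam cells. Since the levels of the members changed along the cell numbers of the labels, which are no named batch, the cells were also split at numbers 66 and 98, limits chosen after the values had been seen. Leaving the Epcam cells out, the median was 0.09 in 66 cells (1 to 66), 0.27 in 32 cells (67 to 98) and 0.35 in 57 cells (99 to 163), and 28.5%, 9.11% and 0.977% of all gene pairs reached these values. The pair of *Fos* and *Egr1* kept 0.70, 0.61 and 0.76 within the 3 ranges. *Fosb* and *Nr4a1* had 0.14, 0.42 and 0.74, and *Egr1* and *Nr4a1* 0.19, 0.27 and 0.82, so that only the first pair of these 3 was above 0.6 in each range. In these ranges *Epcam* was above the lowest value in 15 of 66, 6 of 32 and 51 of 57 cells. The part of the cells with such *Epcam* reads in the correlations of these pairs was not tested in any range.

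Levels differed between the ranges of cell numbers too, and their mean was lowest in cells 67 to 98. The mean of the 10 members was 1.47 ± 0.92 log2RPM in cells 1 to 66, 0.59 ± 1.21 in cells 67 to 98 and 2.44 ± 1.32 in cells 99 to 163 without the Epcam cells (SD over cells). *Fos* was detected in 22 of 66, 3 of 32 and 30 of 57 of these cells, and *Egr1* in 11, 3 and 33. *Btg2* was found in 31, 10 and 42. The order differed for *Nr4a1*, with 3 of 66, 3 of 32 and 19 of 57 cells (4.55%, 9.38% and 33.3%), and for *Fosb* (1.52%, 3.12% and 8.77%), both lowest in cells 1 to 66. *Dusp1* was highest in cells 1 to 66 (62.1%, 40.6% and 45.6%), and so was *Jun* (84.8%, 62.5% and 82.5%). Median depths were 7.49 M, 8.13 M and 8.99 M reads.

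The rarer members in cells 99 to 163 were measured beside the genes of the Epcam cells. In the 57 other cells of this range, *Epcam* was above the lowest value in 51, against 15 of 66 and 6 of 32 cells in the ranges before it. Its median there was 0.973 RPM above the lowest value, which is 0.085% of its mean in the Epcam cells. Other genes of the Epcam cells had nearly the same ratio, 0.088% for *Tbx19* and 0.09% for the tight junction gene *Cldn9*, chosen after its values had been seen. *Cldn9* was above the lowest value in 23 of 66, 2 of 32 and 35 of 57 cells of the 3 ranges. It reached 5 RPM in 9, 0 and 1 of them, so that its reads were not particular to cells 99 to 163. Among the members, the ratio was 0.084% for *Fosb*, 0.075% for *Nr4a1* and 0.11% for *Ier2*, next to *Epcam*, *Tbx19* and *Cldn9*, and 0.029% for *Arc*. *Egr1* (0.16%), *Btg2* (0.22%) and *Fos* (0.27%) lay above them, and *Junb* (0.56%), *Dusp1* (0.66%) and *Jun* (1.7%) farthest above. Over these 57 cells the Spearman correlation with *Epcam* was 0.83 for *Nr4a1*, 0.74 for *Fosb*, 0.71 for *Arc*, 0.68 for *Egr1* and 0.60 for *Ier2*, and 0.17, 0.07 and 0.07 for *Junb*, *Dusp1* and *Jun*. Libraries were pooled for sequencing, and which cells shared a pool or batch is not given in the sources used here. Batches were adjusted for in the study, but the deposited values step by whole reads from 1 lowest value shared by all cells. No such adjustment is visible in them. The part of the Epcam cells, the pools or the batches in these low values was not tested.

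**Figure D4:**
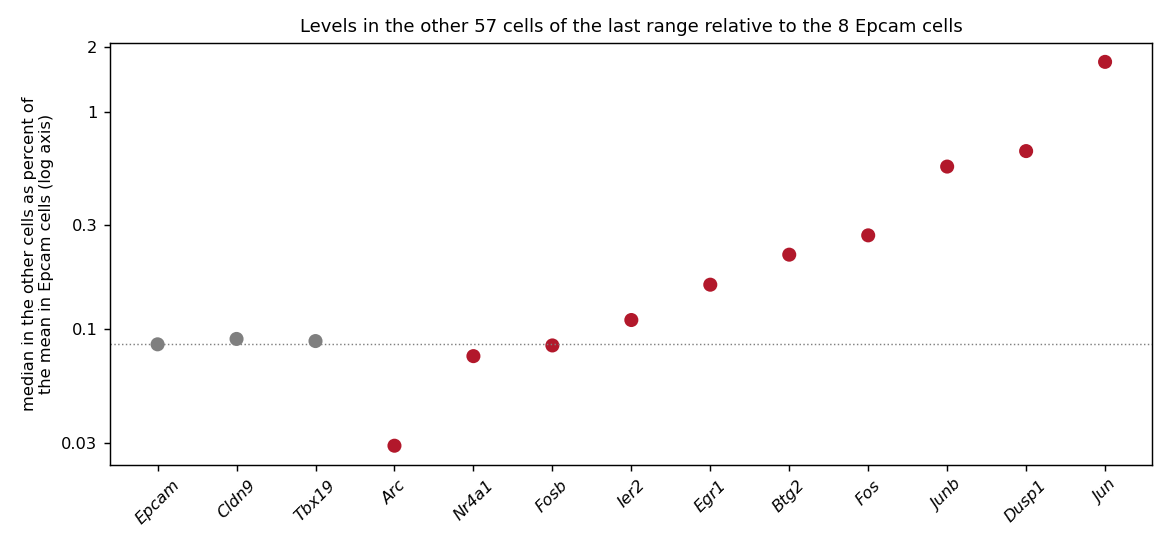
Median level above the lowest value in the other 57 cells numbered 99 to 163, as a percent of the mean level in the 8 Epcam cells (vertical axis, log scale), for 3 genes of the Epcam cells in grey and the 10 members in red. The dotted line marks *Epcam* at 0.085%, beside which *Fosb* (0.084%) and *Nr4a1* (0.075%) lie, and *Jun* lies highest at 1.7%.

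In Agrp-high cells *Jun* was higher and 5 members were lower than in the cells with less *Agrp*. By the same measure 8.65% of all genes were higher and 2.94% lower, or 5.44% and 4.6% after rescaling by widely detected genes. *Jun* stood at 0.10, 6.53 and 9.15 log2RPM in Agrp-high cells (lowest, median and highest of 48), against -0.91, 4.49 and 12.88 log2RPM in the other 115. Its means were 6.15 ± 1.996 and 4.43 ± 3.11 log2RPM, a difference of 1.72. It was detected in 46 of 48 Agrp-high cells (95.8%, interval 85.7% to 99.5%) and in 84 of 115 other cells (73.0%, interval 64.0% to 80.9%). No Agrp-high cell was without *Jun* reads, whereas 6 other cells were. All 6 were numbered 67 to 98, a range with 5 Agrp-high cells and 27 others.

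The lower members were *Ier2*, *Nr4a1*, *Egr1*, *Fos* and *Fosb*. *Ier2* stood at -0.91, -0.53 and 3.99 log2RPM in Agrp-high cells and at -0.91, 0.29 and 11.56 log2RPM in the other cells, a difference of means of -1.81. It was detected in 4 of 48 Agrp-high cells (8.33%) and in 32 of 115 other cells (27.8%). *Nr4a1* stood at -0.91, -0.91 and 4.21 log2RPM in Agrp-high cells and at -0.91, -0.45 and 12.42 log2RPM in the others (difference -1.69), and was detected in 2 and 31 cells. The groups overlap at their lower end for both genes and part at the top, where the others reach further. *Egr1* averaged 0.55 ± 1.83 log2RPM in Agrp-high cells and 2.17 ± 3.65 log2RPM in the others (difference -1.62), and *Fos* 1.504 ± 2.53 log2RPM in Agrp-high cells and 2.66 ± 3.63 log2RPM in the others (difference -1.15). *Fosb* was detected in 1 of 48 and 14 of 115 cells, with a difference of -1.11.

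The differences of the other 4 members were below 1 in size, at 0.70 for *Dusp1*, 0.61 for *Junb*, 0.15 for *Btg2* (-0.06 after rescaling) and -0.73 for *Arc*. The median difference was -0.92 over the 10 members and 0.19 over all genes. The mean of the 3 pituitary markers was 0.03 log2RPM in Agrp-high cells and 0.85 log2RPM in the others, and its part in these differences was not tested. Set against the 28 Pomc-low cells alone, which hold no Epcam cell, Agrp-high cells had 3 members higher and none lower (11.7% and 5.72% of all genes), namely *Jun* by 1.81, *Junb* by 1.85 and *Btg2* by 1.41.

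Once the Epcam cells, none of which is Agrp-high, were left out, 3 members were higher in Agrp-high cells and 1 lower, against 7.94% and 3.18% of all genes. *Jun* differed by 2.12, *Junb* by 1.21 (means 3.33 and 2.11 log2RPM) and *Dusp1* by 1.02 (means 3.54 and 2.52 log2RPM), and *Ier2* by -1.16. *Nr4a1*, *Egr1*, *Fos* and *Fosb* were no longer lower by 1, at -0.97, -0.89, -0.57 and -0.49. *Nr4a1* was detected in 2 of 48 Agrp-high cells (4.17%, interval 0.509% to 14.3%) against 23 of 107 others (21.5%, interval 14.1% to 30.5%), intervals that overlap at their ends, and *Egr1* in 12 of 48 (25.0%) against 35 of 107 (32.7%), with wide overlap.

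The 48 Agrp-high cells were unevenly spread over the cell numbers, with 32 in cells 1 to 66, 5 in cells 67 to 98 and 11 in cells 99 to 163, against 34, 27 and 46 other cells without Epcam cells. *Jun* was higher in Agrp-high cells in each range, by 1.23, 3.77 and 2.59, and *Junb* by 1.33, 2.60 and 1.21. *Ier2* differed by -1.24, -1.22 and -0.93. *Fos* changed its direction, at -1.28, 0.90 and -0.24, as did *Egr1*, at -1.05, 0.80 and -0.69. Counted by range, 2, 4 and 3 members were higher and 3, 1 and 0 lower. Of all genes, 8.6%, 21.3% and 14.0% were higher and 5.97%, 19.5% and 7.62% lower in these smaller groups. *Jun* and *Junb* therefore kept the same direction and a size above 1 in every range, which of the other members none did.

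**Figure D5:**
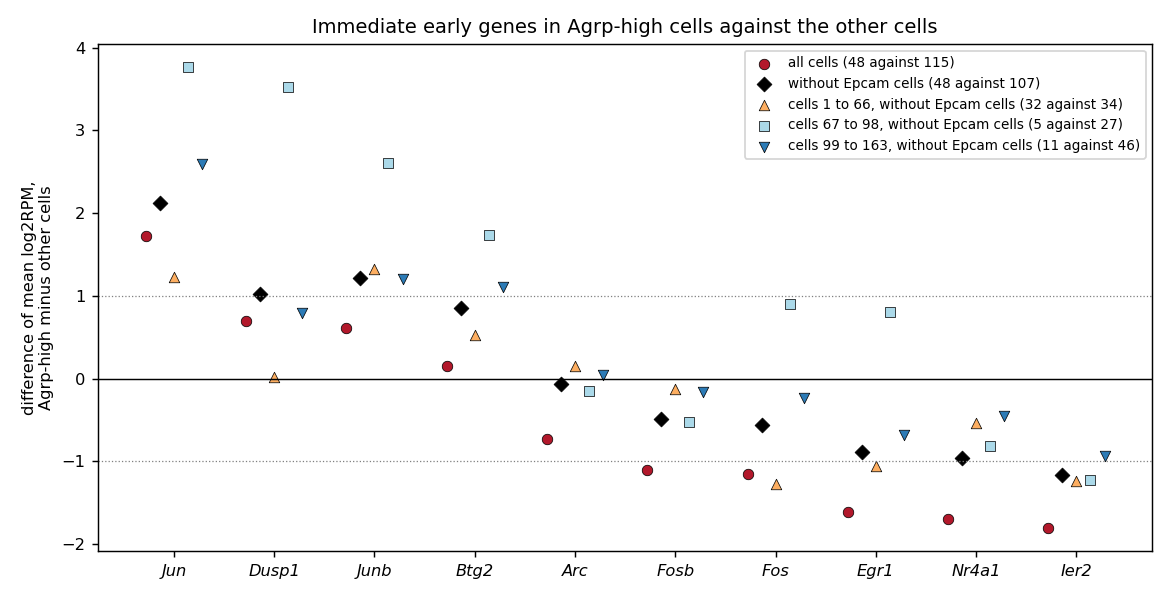
Difference of mean log2RPM, Agrp-high cells minus the other cells (vertical axis), for each member, over all cells, without the 8 Epcam cells and within 3 ranges of cell numbers, with the numbers of cells in the legend and dotted lines at 1 and -1. *Jun* lies above 1 in all 5 settings (1.23 to 3.77), while *Fos* and *Egr1* lie on both sides of 0.

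In Pomc-high cells 7 of the 10 members were higher than in Pomc-low cells, but only 1 was once the 5 Epcam cells among them were left out. Between the Pomc-high and the Pomc-low cells, *Nr4a1* differed by 2.97, *Fosb* by 2.24, *Junb* by 2.21, *Btg2* by 2.18, *Arc* by 1.75, *Egr1* by 1.62 and *Ier2* by 1.62, and none was lower. Of all genes 7.17% were higher and 9.74% lower. *Fos*, *Dusp1* and *Jun* differed by 0.82, -0.03 and -0.35, and without the Epcam cells by -0.43, -0.65 and -1.23.

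*Nr4a1* averaged -0.24 ± 1.23, 1.42 ± 3.05 and 2.73 ± 4.59 log2RPM in Pomc-low, Pomc-intermediate and Pomc-high cells, and was detected in 2 of 28, 14 of 53 and 15 of 34. *Btg2* averaged 1.91, 3.24 and 4.09 log2RPM. *Jun* averaged 4.34, 4.75 and 3.99 log2RPM, with no order. Medians were closer together than means: those of *Nr4a1* were -0.83, 0.19 and 0.86 log2RPM, and those of *Egr1* 0.35, 1.40 and 1.004 log2RPM. Cells at the lowest value were present in every set for both genes. Without the Epcam cells, none of which was Pomc-low, the means of *Nr4a1* were -0.24, 0.92 and 1.13 log2RPM in the same order. Those of *Btg2* were 1.91, 2.69 and 2.61 log2RPM, with no rise from Pomc-intermediate to Pomc-high cells, and those of *Jun* 4.34, 4.38 and 3.11 log2RPM.

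Without the Epcam cells 1 member was higher in Pomc-high cells and 1 lower, against 8.53% and 7.88% of all genes. *Nr4a1* differed by 1.37, with 10 of 29 Pomc-high cells (34.5%, interval 17.9% to 54.3%) against 2 of 28 Pomc-low cells (7.14%, interval 0.877% to 23.5%), intervals that overlap. *Jun* differed by -1.23, with 16 of 29 cells against 21 of 28. *Junb* and *Btg2* differed by 0.95 and 0.70, and *Egr1* by -0.0031. Within ranges of cell numbers the sets are small. In cells 1 to 66, with 8 Pomc-high and 14 Pomc-low cells, no member was higher and 3 were lower (17.8% and 14.2% of all genes), among them *Fos* by -2.75 and *Egr1* by -1.79. In cells 67 to 98, with 9 and 5 cells, *Ier2* was higher, by 2.28, and none was lower (23.2% and 21.2% of all genes). In cells 99 to 163, with 12 and 9 cells, 5 members were higher and 1 lower (19.6% and 11.1% of all genes), with *Fos* at 2.75, *Junb* at 2.71, *Nr4a1* at 2.45, *Egr1* at 2.40 and *Jun* at -1.77. For *Fos*, *Egr1* and *Junb*, among others, the direction thus differed between the ranges (*Junb* by -0.02 in cells 1 to 66).

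Other immediate early genes, from a list of 54 symbols of which 41 were measured, varied with the members. Their median correlation with the mean of the 10 members was 0.33 (0.25 without the Epcam cells), against 0.03 and 0.05 over all 9946 genes. *Atf3*, a stress-induced factor of the ATF family, was the closest of all, at 0.69 (0.64 without the Epcam cells). It was detected in 50 of 163 cells, from -0.91 to 14.92 log2RPM. Its means were 11.32 log2RPM in Epcam cells and 0.82 log2RPM in the others. Over the 57 other cells of the last range of cell numbers, *Atf3* had a Spearman correlation of 0.75 with *Epcam*. It was at 5 RPM or more in 32 of these 57 cells, against 6 of 66 and 4 of 32 in the ranges before. The part of the cells with low *Epcam* reads in the correlations of *Atf3* with the members was not tested. Among the genes detected in at least 20% of cells *Atf3* was the nearest outside the 10 for 8 of 10 members. These were *Fos* (0.64), *Fosb* (0.59), *Junb* (0.43), *Egr1* (0.59), *Nr4a1* (0.69), *Arc* (0.55), *Ier2* (0.55) and *Btg2* (0.56). For *Fosb* and *Junb*, however, other genes, *Tac2* and *Rrad*, came first without the Epcam cells. *Egr2*, a paralogue of *Egr1*, *Zfp36*, which destabilises AU-rich mRNA, and *Fosl2*, an AP-1 subunit, followed in the list at 0.65, 0.57 and 0.55, and *Nptx2* (-0.06) and *Ctgf* (-0.05) were lowest. *Jun* and *Dusp1* had other neighbours: *Rsrp1* (0.41) and the circadian repressor *Bhlhe40* (0.39) for *Jun*, and *Bckdha* (0.36) and *Zdhhc8* (0.33) for *Dusp1*.

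The second neighbours were *Fam107b* for *Fos* (0.50) and *Egr1* (0.51), *Tac2*, the neurokinin B precursor, for *Fosb* (0.51), *Rab27a* for *Junb* (0.42), *Ccdc109b* for *Nr4a1* (0.52), *H2-K1* for *Arc* (0.48), the sulfatase *Sulf1* for *Ier2* (0.53) and the small heat shock protein *Hspb1* for *Btg2* (0.47). Without the Epcam cells these values were 0.49, 0.49, 0.55, 0.33, 0.44, 0.39, 0.47 and 0.40. All stayed above 0.3.

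Over all genes detected in at least 20% of cells, the 12 most like the mean of the members were *Atf3*, *Fam107b* (0.48), *Hspb1* (0.48), *Nfil3* (0.47), *Sulf1* (0.46), *H2-K1* (0.45), *Actb* (0.44), *Tspo* (0.44), *Ccnd2* (0.44), *Ccdc109b* (0.44), *Ppp1r15a* (0.43) and *Tbl1xr1* (0.43). *Nfil3* and *Ppp1r15a*, a regulatory subunit that reverses translational arrest after stress, are themselves in the list of immediate early genes. *Actb*, the cytoskeletal actin, was detected in all 163 cells, at 12.03 log2RPM in Epcam cells and 9.63 log2RPM in the others. The 5 least like it were *Lrrc17* (-0.44), the neuronal G protein subunit *Gng3* (-0.41), *Hypk* (-0.40), the respiratory chain subunit *Ndufa3* (-0.40) and the ribosomal *Rpl37* (-0.39). *Gng3* stood at 4.58 log2RPM in Epcam cells and 8.21 log2RPM in the others.

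Heat shock and stress genes also varied with the members. All 16 listed were measured, and single genes had a median correlation of 0.23 with the mean of the members (0.13 without the Epcam cells). Their mean level correlated with the mean of the members at 0.48 over 163 cells, at 0.40 without the Epcam cells and at 0.17, 0.34 and 0.22 within the 3 ranges of cell numbers. Single genes were highest for *Hspb1* (0.48), *Hspa1b* (0.33), the stress-response factor *Atf4* (0.32) and the chaperone of the endoplasmic reticulum *Hspa5* (0.32), and lowest for *Hspe1* (-0.02) and *Dnajb4* (0.11). *Hspb1* averaged 9.79 log2RPM in Epcam cells and 1.89 log2RPM in the others. The part of the stress response in the members' levels was not tested. Over all cells the correlation of the mean of the members was -0.09 with depth, -0.05 with the mean of 12 pan-neuronal genes and 0.04 with that of 11 housekeeping genes. It was 0.13 with the number of detected genes, or 0.29 without the Epcam cells.

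Kinases and factors upstream of the members varied little with them. All 39 listed were measured, and their median correlation with the mean of the members was 0.07. *Srf*, the factor of the CArG box, was the highest at 0.37 (0.26 without the Epcam cells), with means of 7.76 log2RPM in Epcam cells and 0.46 log2RPM in the others, followed by its partners *Elk3* (0.33) and *Elk4* (0.23), and *Nfatc3* (0.24). *Prkaca*, a catalytic subunit of protein kinase A (-0.19), and *Hras*, a GTPase (-0.15), were lowest.

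Between Agrp-high and other cells, 6 of the 41 other immediate early genes were higher and 5 lower (8.65% and 2.94% of all genes), and 7 and 3 without the Epcam cells (7.94% and 3.18% of all genes). Among the higher was *Bhlhe40*, the neighbour of *Jun*, at 5.38 log2RPM in Agrp-high cells and 3.45 log2RPM in the others (difference 1.93), and among the lower *Egr2* (difference -1.10, or -0.47 without the Epcam cells). Other genes singled out after their values had been seen were *Rgs2*, an inhibitor of G protein signalling, with a difference of 3.06, *Sgk1* (1.82), *Myc* (1.83), *Gadd45g* (1.26) and *Klf6* (1.10) on the higher side, and *Ifrd1* (-1.89), *Rasd1* (-1.87), *Id2* (-1.38) and *Nr4a2* (-1.08, or -0.78 without the Epcam cells) on the lower side. Of the heat shock and stress genes none was higher or lower, and of the 39 upstream genes 2 were higher and 2 lower. In Pomc-high cells 16 of the 41 were higher than in Pomc-low cells and 1 lower (7.17% and 9.74% of all genes), and without the Epcam cells 8 and 0 (8.53% and 7.88% of all genes).

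Cells with markers of another cell type, at least 3 of one list at 5 log2RPM or more, numbered 15, of which 9 were Agrp-high and 6 Pomc-intermediate, and none was an Epcam cell. From the pituitary list only a cell with all 3 measured markers could count, and no cell had them. The 15 cells therefore leave out cells with 1 or 2 pituitary markers. These 15 rested on 6 measured oligodendrocyte markers (14 cells) and 5 measured astrocyte and tanycyte markers (4 cells), while none of the 8 microglia markers and none of the 8 endothelial and mural markers was among the measured genes. No member was higher or lower by 1 in these 15 cells, against 7.16% and 3.11% of all genes. *Jun* averaged 5.80 ± 1.69 log2RPM in them and 4.84 ± 3.02 log2RPM in the other 148, and *Ier2* 0.33 ± 1.27 and 1.28 ± 3.06 log2RPM. The mean of the oligodendrocyte markers was 1.88 log2RPM in Agrp-high cells and 1.57 log2RPM in the others.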

How the data were processed

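The authors deposited log2 values, reads per library size with a prior added (log2RPM), for 1 library per cell. Per the labels and the study's methods, cDNA was made with SMART-Seq v4 and Nextera XT, which do not mark strand, reads were demultiplexed with CASAVA 1.7, aligned to GRCm38 with TopHat2 2.0.11, counted with Cufflinks 2.2.1 and normalized with edgeR and limma (versions not given in the sources used here). Each of the deposited genes is at 5 RPM or above in 7 cells or more. Pituitary and GFP-negative cells, also sorted and sequenced in the study, were not analysed here, and no doublet caller was run. The values of 1 gene are not reported here.

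The depth of each cell was recovered from the steps between low values: of those worth 1 to 20 reads, 99.3% came out whole to within 0.1. Differences are between means of log2RPM over cells, and correlations are Spearman's, with ties at the lowest value. The mean of the members is the mean log2RPM of the 10 genes. Functions were tested on simulated data. Members, gene lists and the sets of cells were chosen with earlier results of these data known. Named genes are the members, the 12 genes most and 5 least correlated with their mean among genes detected in at least 20% of cells, 2 neighbours of each member among the same genes, and the 4 highest and 2 lowest of 3 lists (other immediate early genes, upstream kinases and factors, heat shock and stress genes). Others are said to be chosen after their values were seen. Exon lengths came from GENCODE and promoters from RefSeq. Detection was also taken at 1 RPM, at 10 RPM and for each value over the lowest. Other alternatives were *Agrp* limits of 9 and 11 log2RPM, 3 equal sets by *Pomc*, pseudocounts of 0.1 and 5 RPM on linear RPM, a filter at 10% of cells, rescaling by 2711 genes detected in at least 90% of cells, leaving out cells with markers of another cell type, Pearson and partial correlations, and thinning to 4 M reads, which left 143 cells. Leaving out the Epcam cells and splitting by cell number were added after the data were seen. Computations used Python 3.11.15, numpy 2.4.6, pandas 2.3.3, scipy 1.17.1 and matplotlib 3.10.9.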

Additional observations from a re-analysis of the deposited data

How the results depend on the processing

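Detection depends on the cut-off: the median share over the 10 members was 36.2% at 5 RPM, 61.7% at 1 RPM and 77.0% for any value above the lowest, and the mean number of members per cell was 3.71 at 5 RPM and 5.9 at 1 RPM. Thinned to 4 M reads, the median share was 32.5%. In Agrp-high cells, linear RPM with a pseudocount of 0.1 gave 2 higher members in place of 1, and a pseudocount of 5 gave 3 lower members in place of 5. Of all genes, 14.3% were higher and 4.21% lower at 0.1, and 2.54% and 1.15% at 5, in place of 8.65% and 2.94%. Leaving out the Epcam cells gave 3 higher and 1 lower, and the ranges of cell numbers without them gave 2, 4 and 3 higher and 3, 1 and 0 lower, with *Fos* at 0.90 and *Egr1* at 0.80 in cells 67 to 98. The *Agrp* limits, the rescaling, the filter at 10% of cells and leaving out cells with markers of another cell type kept these counts within 1.5 times. At *Agrp* limits of 9 and 11 log2RPM, 8.85% and 7.88% of all genes were higher and 2.8% and 3.04% lower. Leaving out cells with such markers gave 8.96% and 2.88%. Rescaling moved the median of all genes from 0.188 to -0.0297 and the genes higher and lower from 8.65% and 2.94% to 5.44% and 4.6%. Between Pomc-high and Pomc-low cells, 3 equal sets by *Pomc*, both pseudocounts, rescaling and leaving out cells with markers of another cell type each gave 7 higher members and none lower. Of all genes, 5.43% were higher and 7.14% lower with equal sets, 10.2% and 15.2% at a pseudocount of 0.1, and 2.43% and 2.51% at 5. Rescaling gave 7.66% and 9.25%, and leaving out cells with such markers 7.17% and 9.74%. Leaving out the Epcam cells gave 1 member higher and 1 lower (8.53% and 7.88% of all genes), with *Egr1* at -0.00311 and *Fos* at -0.433 in place of 0.819. By range of cell numbers 0, 1 and 5 members were higher and 3, 0 and 1 lower, with the direction turned round for *Fos* (-2.75), *Egr1* (-1.79), *Ier2* (-1.2), *Arc* (-0.307) and *Junb* (-0.0206) in cells 1 to 66 and for *Junb* (-0.267) in cells 67 to 98. In cells with markers of another cell type, 1 member was higher without the Epcam cells. The share of all genes was not computed for that setting, so nothing is drawn from this count. The median correlation was 0.418, and 0.184 within Agrp-high cells, 0.086 in cells 1 to 66 and 0.268 in cells 67 to 98. It was 0.365 after thinning and 0.577 by Pearson's measure. The causes of these changes were not tested. No paired analysis was possible because the 163 cells form 1 group. Over all cells the correlation of a member with depth lay between -0.127 (*Fos*, *Dusp1*) and 0.0403 (*Jun*).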

Other observations

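*Epcam*, at 5 RPM or more, was found in 4 of 66 cells numbered 1 to 66, in 1 of 32 numbered 67 to 98 and in 4 of the 57 other cells numbered 99 to 163, all below 4 log2RPM. *Tbx19* was above the lowest value in 0 of 66, 5 of 32 and 42 of 57 of these cells. *Atf3* was at 5 RPM or more in 6 of 66, 4 of 32 and 32 of 57 cells, and its median in the last range was 0.1% of its mean in the Epcam cells.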
